A study of Rattus norvegicus with 4 samples.

Results

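The genes described here are the amino acid transporters of 6 solute carrier families, measured in rat soleus after nerve section on a control or a genistein diet. They were taken as every probe set annotated to exactly 1 gene whose symbol starts with Slc1a, Slc6a, Slc7a, Slc36a, Slc38a or Slc43a, leaving out Slc6a8, Slc7a5 and Slc7a11. This gave 66 probe sets for 48 genes, among 31042 non-control probe sets and 14217 genes in all. 1 of the 48, Slc7a6os, is not a carrier but the gene next to Slc7a6 on the opposite strand, which the naming rule takes in.

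All rats were male Wistar animals, 10 weeks old when the diets began and labelled as 14 weeks old, and they were fed for 24 days. The control diet was a modified AIN-93G diet with corn oil in place of soybean oil, and the genistein diet was AIN-93G with 0.5 g of genistein, a soy isoflavone, per kg (0.05%). On day 14 the sciatic nerve of the left leg was cut in every rat and the right leg received a sham operation, and the muscles were taken 10 days later. The soleus is a slow postural muscle of the hind limb. RNA of 8 rats was pooled for each of the 4 groups (sham and denervated muscle of each diet), and each pool was read on 1 Affymetrix array, and for want of replicates the values below carry no error and no test. Within a diet, the same 8 rats gave the left legs of one pool and the right legs of the other, and whether the label of the genistein diet also covers the change of oil cannot be told from the sources used here.

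Amino acid carriers move amino acids across the cell and lysosome membranes by exchange or by coupling to sodium or protons. In skeletal muscle the Slc38 family carries small neutral amino acids and glutamine, Slc7 carriers take up cationic amino acids or exchange large neutral ones with the help of the heavy chain Slc3a2, and Slc43 carriers let large neutral amino acids pass without sodium. The Slc6 family holds the carriers of taurine and glycine together with those of neurotransmitters such as dopamine, serotonin and GABA, which are best known from the nervous system.

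The arrays were compared by their titles, because the treatment field of the control diet denervated and the genistein diet sham sample goes against their titles. Genes induced by nerve loss went with the titles: all 6 of Chrna1, Chrng, Myog, Myod1, Gadd45a and Hdac4 were at least 2-fold higher in denervated muscle on both diets. All 9 skeletal muscle fibre markers were above background on every array, but they summed to 348004 and 308168 units in the sham and 215483 and 175446 in the denervated pools (control diet first). Their median denervation ratios were -0.63 and -0.69, with 2 of 9 at least 2-fold lower on each diet, and their part in the carrier ratios was not tested. The median signal was 120.8 to 132.5 units, and 58.5% to 60.8% of probe sets lay above background. RNA integrity, read from actin as its 3′ over its 5′ signal, gave 2.08 and 2.32 for the sham pools (control and genistein diet) but 3.79 in the control diet denervated pool and 2.76 in the genistein diet denervated pool, while the same ratio of Gapdh was 1.24 and 1.2 in the sham and 1.14 and 1.13 in the denervated pools. The part of RNA integrity in the ratios below was not tested.

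Background was set at 78.9 units, the 40th percentile of all non-control signals on the 4 arrays together. By this floor, 25 of the 48 genes were above background on at least 1 array and 17 of them on all 4. The share, 52.1%, was lower than the 78.4% of all 14217 genes on the array. For each gene the values are those of the probe set highest in mean log2 signal, and no other probe set of the 23 remaining genes reached the floor either. The split followed the families: 8 of 9 Slc38 genes, both Slc43 genes, 2 of 3 Slc36 genes, 3 of 6 Slc1 genes and 6 of 13 Slc7 genes were above background, but only 4 of 15 Slc6 genes.

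The 23 genes below background on all 4 arrays read between 1.9 and 78.4 units. Among them were the glutamate carriers Slc1a1, Slc1a2 and Slc1a6, the noradrenaline carrier Slc6a2, the serotonin carrier Slc6a4, the glycine carrier Slc6a5, the GABA carriers Slc6a11 and Slc6a13, and Slc6a7, Slc6a14, Slc6a15, Slc6a17, Slc6a18 and Slc6a20b. The cationic amino acid carriers Slc7a2 and Slc7a3 were also below it, as were Slc7a4, Slc7a9, Slc7a12, Slc7a13 and Slc7a14. The lysosomal carriers Slc36a1, at 19.0 to 23.9 units, and Slc38a9, at 36.0 to 70.7 units, completed this set. The gene just below the floor was Slc6a17, with 78.4 units on its brightest array, and the gene just above it was Slc38a5, with 93.3 units in genistein diet sham muscle. A signal below the floor is a limit of these probe sets on these arrays and does not show that the gene is silent. Markers of neurons were likewise low: 3 of 8 (Nefm, Tubb3 and Syn1) were above background on any array, and Snap25 was below it on all 4 arrays, at 3.5 units in control sham muscle.

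**Figure D1:**
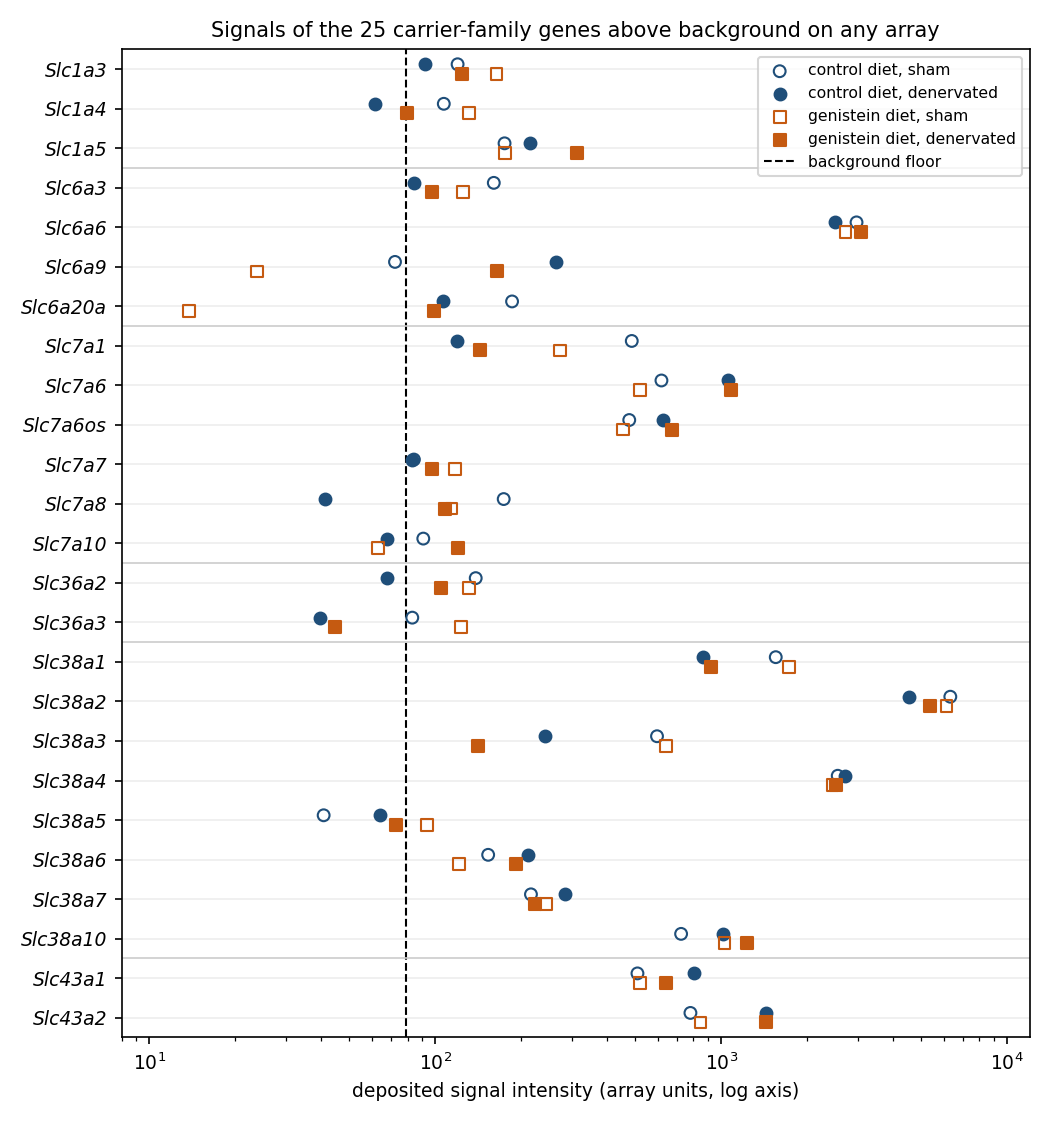
Deposited signal (log axis, array units) of the 25 genes above background on any array, grouped by family, with 1 point for each of the 4 pooled arrays and the floor of 78.9 units as a dashed line. Slc38a3 and Slc7a1 have both denervated points left of both sham points, and Slc43a2 and Slc7a6 have both to the right.

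The first comparison asks what loss of the nerve did to these genes in each diet. A gene was called higher or lower when its signal differed by at least 2-fold, after signals under the floor were raised to it. Genes under the floor on both arrays of a comparison were not measured in it. On the control diet 1 of 24 measured genes was higher (Slc6a9) and 3 were lower (Slc7a1, Slc38a3 and Slc7a8), against 5.04% higher and 7.63% lower among 10755 measured genes of the array. On the genistein diet 2 of 25 were higher (Slc6a9 and Slc7a6) and 1 was lower (Slc38a3), against 4.96% and 6.57% of 10810 genes. Counts of 1 to 3 in 24 or 25 genes are of the order of these shares of the array, and no result about the families is read from them. The median log2 ratio over the measured genes was -0.14 (control diet) and -0.07 (genistein), beside -0.003 and 0.02 over all measured genes. Past 2-fold on both diets were Slc6a9 (higher) and Slc38a3 (lower), 1 gene each of 24, where 3.59% and 4.93% of all genes were.

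As a guide to measurement error, probe sets of the same gene were compared. Over 2310 genes with 5373 probe sets above the floor on all 4 arrays, the SD between probe sets of the same gene was 0.35 log2 units for the denervation ratio on the control diet and 0.36 for that on genistein. For the diet ratio it came to 0.26 (sham) and 0.25 (denervated). Since these probe sets read the same pools, the spread between animals and between pools is not in this SD. After denervation, 18 control diet ratios (8 above and 10 below 0) and 13 genistein diet ratios (7 above and 6 below) lay further from 0 than that SD, which is 75% of 24 and 52% of 25 measured genes, beside 53.2% and 49.8% of all measured genes.

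Markers of other cells of the muscle differed between the pools as well. The 8 fibroblast and matrix markers, all above background, summed to 24863 units in control denervated and 42076 in genistein denervated muscle, and to 57791 and 58471 in the sham pools. The 9 macrophage and leukocyte markers, all above background on some array, summed to 6777 and 10621 units in the denervated pools and to 10027 and 10181 in sham. The 7 endothelial markers on the array summed to 2218 and 3223 in the denervated and 4341 and 4430 in the sham pools, again control diet first. The 6 adipocyte markers on the array, 5 of them above background and Lep at 3.9 to 5.9 units, together summed to 3949 and 6401 in denervated and 7326 and 6802 in sham muscle. Fabp4 made up most of that sum, and by ratio 3 of 5 measured adipocyte markers (Plin1, Cidec and Cfd) were at least 2-fold higher after denervation on genistein, with a median of 1.06, beside 0 of 4 higher, 1 lower (Fabp4) and a median of -0.18 on the control diet. The 8 Schwann cell and nerve markers, 6 of them above background and Sox10 at 5.0 to 9.8 units, together summed to 7632 and 9725 in denervated and 4350 and 4402 in sham muscle. Most of this rise was Ncam1, at 709.1 and 666.4 units in sham and 4079.0 and 5012.6 in denervated muscle, and the median denervation ratio of the list was -0.11 (control diet) and 0.45 (genistein). The 8 neuron markers, 3 of them above background, together summed to 274 and 405 units in the sham and 625 and 603 in the denervated pools. The 4 erythrocyte markers on the array, 3 of them above background, together summed to 15587 and 7827 in sham and 10458 and 6609 in denervated muscle. In RNA of whole muscle, fewer cells of a type and less RNA per cell cannot be told apart, and the part of these cells in the carrier ratios was not tested.

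**Figure D2:**
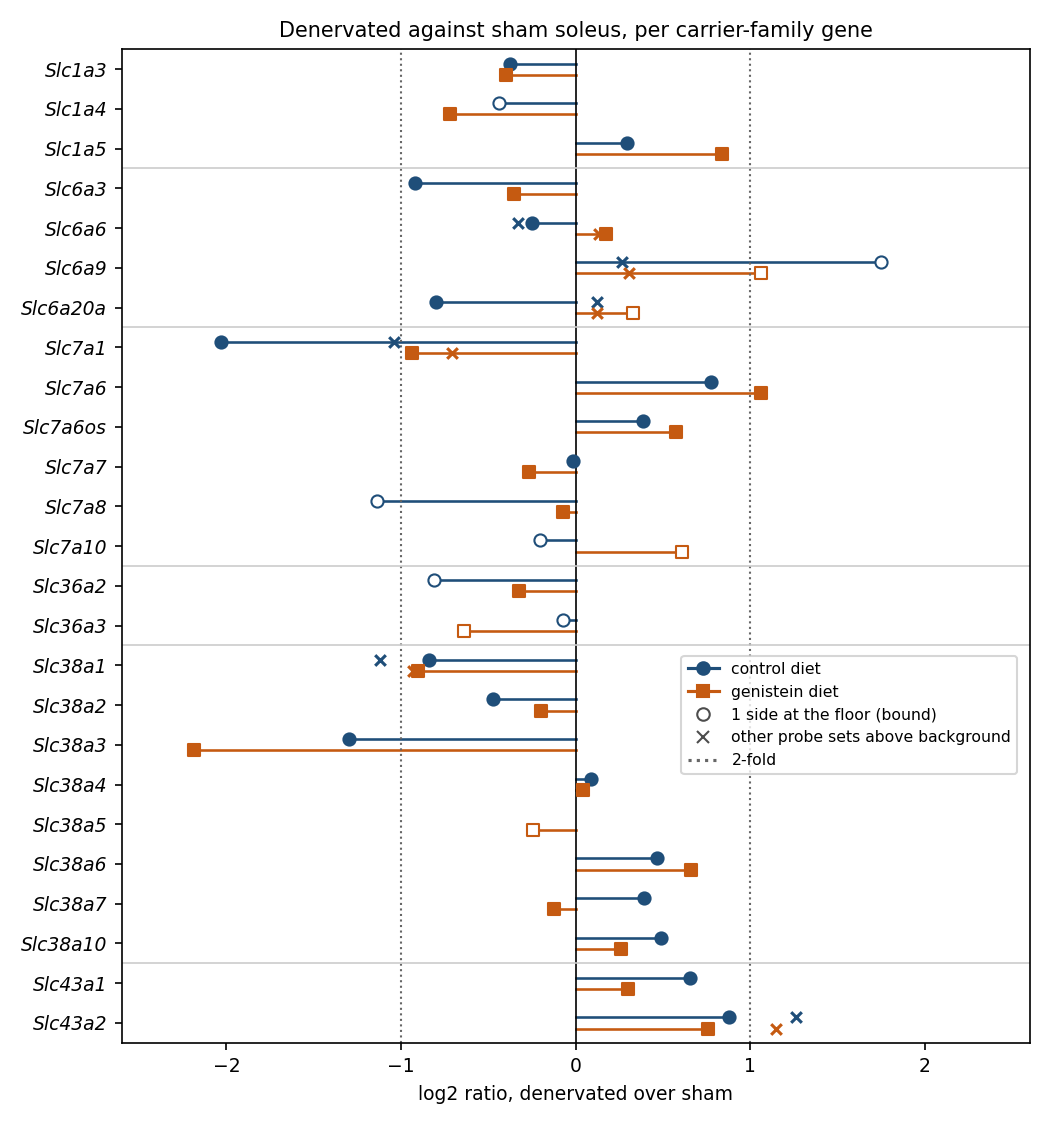
Log2 ratio of denervated over sham muscle for each gene, on the control diet (circles) and the genistein diet (squares), with open symbols where 1 side lies at the floor and the ratio is a bound, crosses for a gene's other probe sets (bounds where a side is at the floor), and dotted lines at 2-fold. Slc38a3 lies left of the 2-fold line on both diets and Slc6a9 right of it on both, and the other probe set of Slc43a2 also lies right of it.

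Promoter windows ran from 250 bases before to 50 after the annotated start in RefSeq's GRCr8 assembly. The windows were at hand for 36 of the 48 genes, but not for Slc38a3. They were searched on both strands for TGATGNAA, the core of the element through which ATF4, a factor that induces carriers when amino acids run short, acts with its C/EBP partners. It was in 3 of the 36 windows, those of Slc7a1, Slc38a1 and Slc1a4, and in 3.82% of 27457 windows of the same length. These 3 genes had denervation ratios below 0 on both diets (-2.03 and -0.94, -0.84 and -0.91, -0.44, a bound, and -0.72). Of the measured family genes, 14 of 24 were below 0 on the control diet and 13 of 25 on genistein. Over the array 5397 of 10755 and 5219 of 10810 genes were. A link between the match and the ratios was not tested. The 3 windows are shown because they hold the match, with the matched bases in capitals, 5′ to 3′ on the gene's strand. The Slc7a1 window is chr12:11664238-11664537 on the plus strand with TGATGAAA from base -30, the Slc38a1 window is chr7:129681352-129681651 on the minus strand with TGATGCAA from base -142, and the Slc1a4 window is chr14:98761513-98761812 on the minus strand, where the match reads TTGCATCA from base -235 and a second capital run, CAGCTG, is an E-box.
Slc7a1: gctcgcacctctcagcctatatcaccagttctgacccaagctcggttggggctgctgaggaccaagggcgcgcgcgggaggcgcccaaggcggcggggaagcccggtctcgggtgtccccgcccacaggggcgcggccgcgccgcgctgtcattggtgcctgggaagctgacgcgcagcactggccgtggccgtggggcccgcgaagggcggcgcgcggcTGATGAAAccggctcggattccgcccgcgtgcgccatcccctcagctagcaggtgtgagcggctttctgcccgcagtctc
Slc38a1: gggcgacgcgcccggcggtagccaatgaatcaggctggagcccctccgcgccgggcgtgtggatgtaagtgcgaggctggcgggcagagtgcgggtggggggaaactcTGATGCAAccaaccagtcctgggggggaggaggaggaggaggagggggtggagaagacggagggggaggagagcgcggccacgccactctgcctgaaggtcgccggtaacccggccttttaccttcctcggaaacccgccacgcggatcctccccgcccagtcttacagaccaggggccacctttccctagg
Slc1a4: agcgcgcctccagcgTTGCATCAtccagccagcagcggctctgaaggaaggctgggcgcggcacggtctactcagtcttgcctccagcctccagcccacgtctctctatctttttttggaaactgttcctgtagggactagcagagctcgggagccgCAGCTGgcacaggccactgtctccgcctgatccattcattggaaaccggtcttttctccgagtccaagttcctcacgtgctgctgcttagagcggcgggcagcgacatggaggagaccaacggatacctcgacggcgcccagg
A match is a description of the letters in the window and not evidence of a bound site.

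Other motifs were sought in the same windows, none of which overlaps TGATGNAA in the 3 windows shown. The E-box CAGCTG of the myogenic factors was in 3 of 36 windows (Slc1a4, Slc38a4 and Slc38a6) and in 15.1% of all. The nuclear receptor element AAGGTCA was in 1 (Slc6a11, a gene below background) and in 4.37% of all. The MEF2-type element, in 3.83% of all windows, and the palindromic oestrogen response element, in 0.0255%, were in 0 of the 36. The windows had a median GC content of 57.3% for the 22 genes above background and for the 14 below it, beside 52.3% over all windows.

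The Slc38 family carries small neutral amino acids and glutamine with sodium. Slc38a3, the glutamine carrier of system N, read 596.4 units in control sham, 242.9 in control denervated, 642.1 in genistein sham and 140.9 in genistein denervated muscle. Both denervated pools were below both sham pools, with the genistein diet denervated pool the lowest. Denervated muscle was 2.46-fold lower with the control diet (log2 ratio -1.30) and 4.56-fold lower with genistein (-2.19). Ratios as low were found in 3.93% (control diet) and 0.796% (genistein) of all measured genes. With the arrays scaled by their hybridisation spike-in controls the control diet value was -0.91, short of 2-fold.

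Slc38a1, a system A carrier that also takes up glutamine, read 1551.8 and 865.5 units in control sham and denervated muscle, and 1728.8 and 923.2 on genistein. Its log2 ratios of -0.84 and -0.91 stayed short of 2-fold, with both denervated pools below both sham pools. Another probe set of the gene read 588.8, 270.5, 598.1 and 314.0 units in the same order and gave -1.12 and -0.93. The third probe set of Slc38a1 was below the floor on every array, at 2.6 to 7.4 units. Slc38a2, the system A carrier known to be induced by amino acid shortage, had the log2 ratios -0.47 and -0.20. Its signals were 6329.4 and 4556.1 units on the control diet and 6138.9 and 5357.5 on genistein, sham first. Slc38a4, a further system A carrier, was nearly level at 2556.1, 2721.0, 2451.2 and 2526.1 units, with log2 ratios of 0.09 and 0.04. These 3 genes lie side by side on chromosome 7 in the RefSeq annotation of the GRCr8 assembly (Slc38a1, Slc38a2, Slc38a4).

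The ratios of Slc38a6, Slc38a7 and Slc38a10 were above 0 on the control diet. Slc38a6 read 153.1 and 211.4 units on the control diet and 120.7 and 190.9 on genistein, sham before denervated, for log2 ratios of 0.47 and 0.66. Both denervated pools were above both sham pools. Slc38a10 read 724.1, 1015.3, 1027.8 and 1228.4 units in control sham, control denervated, genistein sham and genistein denervated muscle (0.49 and 0.26), so that the genistein sham and control denervated pools were about level. Slc38a7, a lysosomal carrier of glutamine and asparagine, read 216.1, 283.9, 244.5 and 224.1 units in that order, with ratios of opposite sign (0.39 and -0.13). Slc38a5, the second system N carrier, read 40.7, 64.2, 93.3 and 72.8 units and was above the floor only in genistein sham muscle.

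The Slc7 family holds the cationic carriers and the light chains that pair with a heavy chain. Slc7a1, the main carrier of arginine and lysine of the y+ system, read 486.7 units in control sham, 119.0 in control denervated, 273.7 in genistein sham and 143.0 in genistein denervated muscle. Both denervated pools were below both sham pools, but the sham pools themselves were far apart. Denervated muscle was 4.09-fold lower with the control diet (log2 ratio -2.03), and with genistein 1.91-fold lower, short of the threshold (-0.94). The next probe set read 295.8, 143.9, 271.9 and 166.6 units, with nearly level sham pools and smaller ratios of -1.04 and -0.71. The third probe set of Slc7a1 was below the floor on every array.

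Slc7a8, the light chain of a system L exchanger of neutral amino acids, read 173.5 units in control sham and 41.1, below the floor, in control denervated muscle. On genistein it read 113.9 and 108.4 units. With the control diet the gene was at least 2.20-fold lower after denervation (-1.14), and with genistein its ratio was -0.07. The control diet value was -0.94 under spike-in scaling.

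Slc7a6, the light chain of a y+L exchanger that lets cationic amino acids out for neutral ones, had ratios above 0 on both diets. It read 618.1 and 1058.3 units in control sham and denervated muscle and 519.3 and 1084.1 on genistein, so that both denervated pools were above both sham pools. Its log2 ratios were 0.78 (control diet) and 1.06 (genistein, 2.09-fold), the second of which was 0.99 after quantile normalization. Its neighbour Slc7a6os read 476.9, 624.0, 452.2 and 673.2 units in control sham, control denervated, genistein sham and genistein denervated muscle (0.39 and 0.57). Slc7a7, the other y+L light chain, read 84.2, 83.2, 117.2 and 97.5 units, close to the floor, with ratios of -0.02 and -0.27. Slc7a10, the light chain of a small neutral amino acid exchanger, read 90.8, 68.0, 63.1 and 120.2 units and was above the floor only in control sham and genistein denervated muscle (bounds of -0.20 and 0.61).

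The Slc43 carriers of large neutral amino acids had higher signals in both denervated pools than in both sham pools, short of 2-fold in the probe sets that stand for the genes. Slc43a2 read 780.6 and 1437.1 units on the control diet and 847.0 and 1434.5 on genistein, sham before denervated, for log2 ratios of 0.88 and 0.76. Another probe set read 401.8, 965.0, 440.0 and 975.9 units and passed 2-fold on both diets (1.26 and 1.15). In both probe sets the denervated pools were nearly equal and above both sham pools. Slc43a1 read 509.5, 801.3, 520.9 and 640.7 units in the same order, with ratios of 0.65 and 0.30.

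Among the Slc6 genes, Slc6a9, the glycine carrier GlyT1, read 72.3 and 23.8 units in control and genistein sham muscle, both below the floor, and 265.1 and 164.9 units in the denervated pools. As bounds, the gene was at least 3.36-fold higher after denervation with the control diet and at least 2.09-fold higher with genistein. Another probe set read 5.8 and 4.6 units in the sham pools and 95.0 and 97.5 in the denervated pools, so it too was above the floor only after denervation, with bounds of 0.27 and 0.31 log2 units. The third probe set was below the floor on all arrays. The call rests on 1 probe set near the floor: with the mean of the gene's probe sets the values were 0.67 and 0.46, and with the floor at the 60th percentile the control diet value was 0.29.

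Slc6a6, the taurine carrier, read 2974.1, 2502.9, 2722.1 and 3072.5 units in control sham, control denervated, genistein sham and genistein denervated muscle, and its ratios were small and of opposite sign (-0.25 and 0.17). Its other probe set gave -0.33 and 0.13. Slc6a3, the dopamine carrier, read 160.2, 84.5, 124.8 and 97.7 units in the same order (-0.92 and -0.35), and its other probe set was at 4.1 to 8.8 units. Slc6a20a, a carrier of proline and related imino acids, read 185.6, 106.6, 13.8 and 98.9 units, so that the genistein sham pool stood below the floor and the other 3 above it (-0.80, and 0.33 as a bound). Its other probe set read 54.9, 85.8, 23.8 and 86.0 units, higher in both denervated pools, and so differs in direction on the control diet.

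The 3 Slc1 genes above background did not move alike, and none passed 2-fold. Slc1a5, the glutamine exchanger ASCT2, read 174.7 and 214.3 units in control sham and denervated muscle and 174.8 and 312.6 on genistein (0.29 and 0.84), with the sham pools level and the genistein denervated pool highest. Slc1a4, the related exchanger ASCT1, had ratios below 0 on both diets, at 107.1, 61.4, 130.9 and 79.5 units (-0.44, a bound, and -0.72). Slc1a3, the glial glutamate carrier, read 119.7, 92.2, 163.7 and 124.2 units (-0.38 and -0.40), and its other probe sets were below the floor. Slc36a2, a proton-coupled carrier of small amino acids, read 138.5, 67.9, 131.1 and 104.5 units (-0.81, a bound, and -0.33), and Slc36a3 was above the floor in the sham pools only, at 83.1, 39.6, 123.0 and 44.6 units (bounds of -0.07 and -0.64).

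Of the 17 genes that every array measured above background, 15 (88.2%) had denervation ratios of the same sign on both diets, beside 79.7% of 9362 such genes of the array. The exceptions were Slc6a6 and Slc38a7. The ratios of the diets, which share no array, correlated at r = 0.83 across these 17 genes and at 0.861 across those 9362 genes, as a description, since genes are not replicates and all pools were read on the same array type. Spike-in scaling raised the median denervation ratio of all genes to 0.37 (control diet) and 0.48 (genistein). It turned the ratios of Slc1a3 on both diets to 0.01 and 0.08. On genistein it also turned those of Slc36a2, Slc38a2, Slc38a5, Slc38a7, Slc6a3, Slc7a7 and Slc7a8 above 0. On the control diet it turned Slc6a6 to 0.14 and Slc7a7 to 0.26, and Slc7a7 there was also above 0 under median scaling and quantile normalization.

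**Figure D3:**
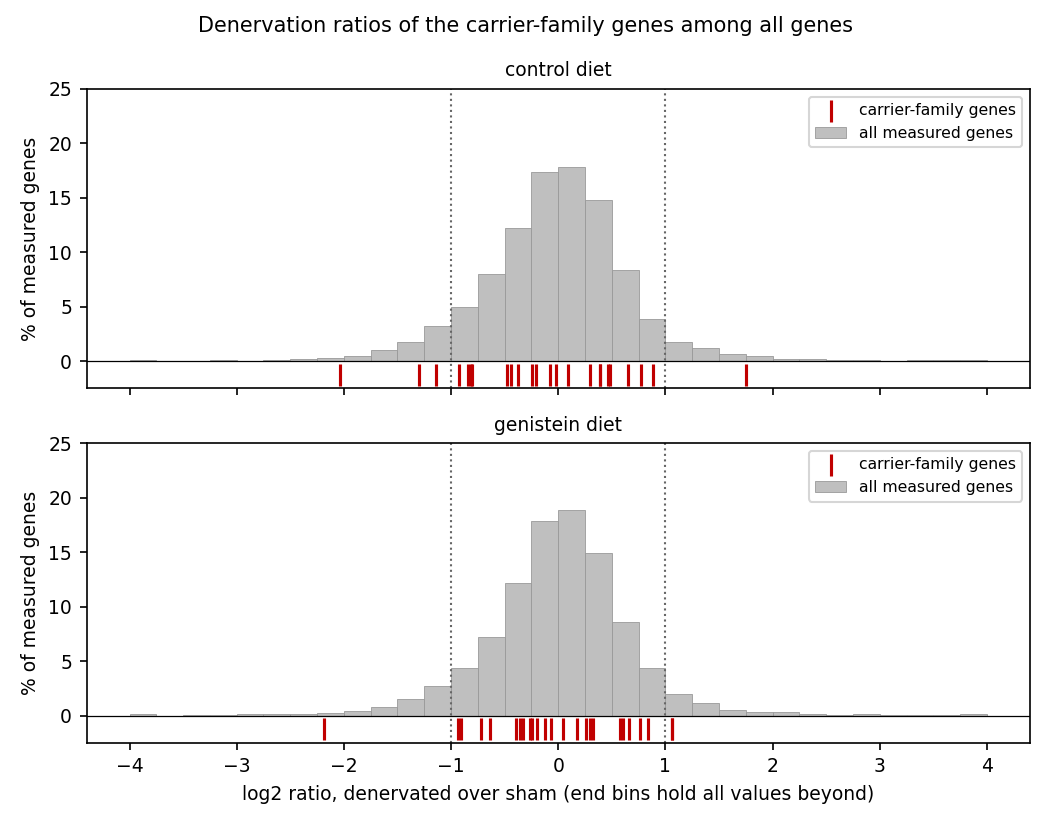
Share of all measured genes (bars, %) by log2 ratio of denervated over sham muscle on each diet, with the measured carrier-family genes as red ticks under the bars and dotted lines at 2-fold. The ticks lie on both sides of 0 inside the wider range of the bars, from -2.03 to 1.75 with the control diet and from -2.19 to 1.06 with genistein.

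The next comparison asks what genistein did in sham muscle. None of 24 measured genes was 2-fold higher and 1, Slc6a20a, was lower, against 0.324% and 0.287% of 10819 genes of the array. Slc6a20a was at least 2.35-fold lower on genistein (log2 ratio -1.23), from 185.6 units to below the floor. Its other probe set read 54.9 and 23.8 units in the sham pools, under the floor, and the mean of the probe sets gave -0.62. The next lowest was Slc7a1 at -0.83, from 486.7 to 273.7 units, which its other probe set did not show (-0.12). Slc7a8 was at -0.61, Slc6a3 at -0.36 and Slc38a6 at -0.34. On the other side were Slc36a3 (0.57), Slc38a10 (0.51), Slc7a7 (0.48) and Slc1a3 (0.45). The system A carriers Slc38a2 (-0.04), Slc38a4 (-0.06) and the taurine carrier Slc6a6 (-0.13) lay within the scatter between probe sets. The median was -0.02, beside 0.002 over all genes.

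In denervated muscle none of 23 measured genes passed 2-fold between the diets, where 1.02% of 10479 genes were higher on genistein and 0.124% lower. Slc38a3 had the lowest ratio, -0.79, from 242.9 units on the control diet to 140.9 on genistein, and 0.458% of all measured genes were as low. Slc6a9 followed at -0.68 (265.1 and 164.9 units), but its other probe set was level (95.0 and 97.5 units). Slc38a7 was at -0.34 and Slc43a1 at -0.32. Above 0, short of 2-fold, were Slc7a10 (0.61, a bound), Slc1a5 (0.54), Slc7a8 (0.46, a bound), Slc1a3 (0.43) and Slc36a2 (0.41, a bound). Of the 23 genes 15 were above 0, with a median of 0.11 beside 0.00 over all genes, and under median scaling the medians were 0.03 and -0.13. The marker sums of fibroblasts, macrophages, endothelium, adipocytes and Schwann cells given above were higher in the genistein denervated than in the control denervated pool. Those of muscle fibres and erythrocytes were lower. The neuron sum, with 3 of 8 markers above background, was nearly level at 625 (control diet) and 603 units (genistein). The part of any of these cells in the diet ratios was not tested.

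**Figure D4:**
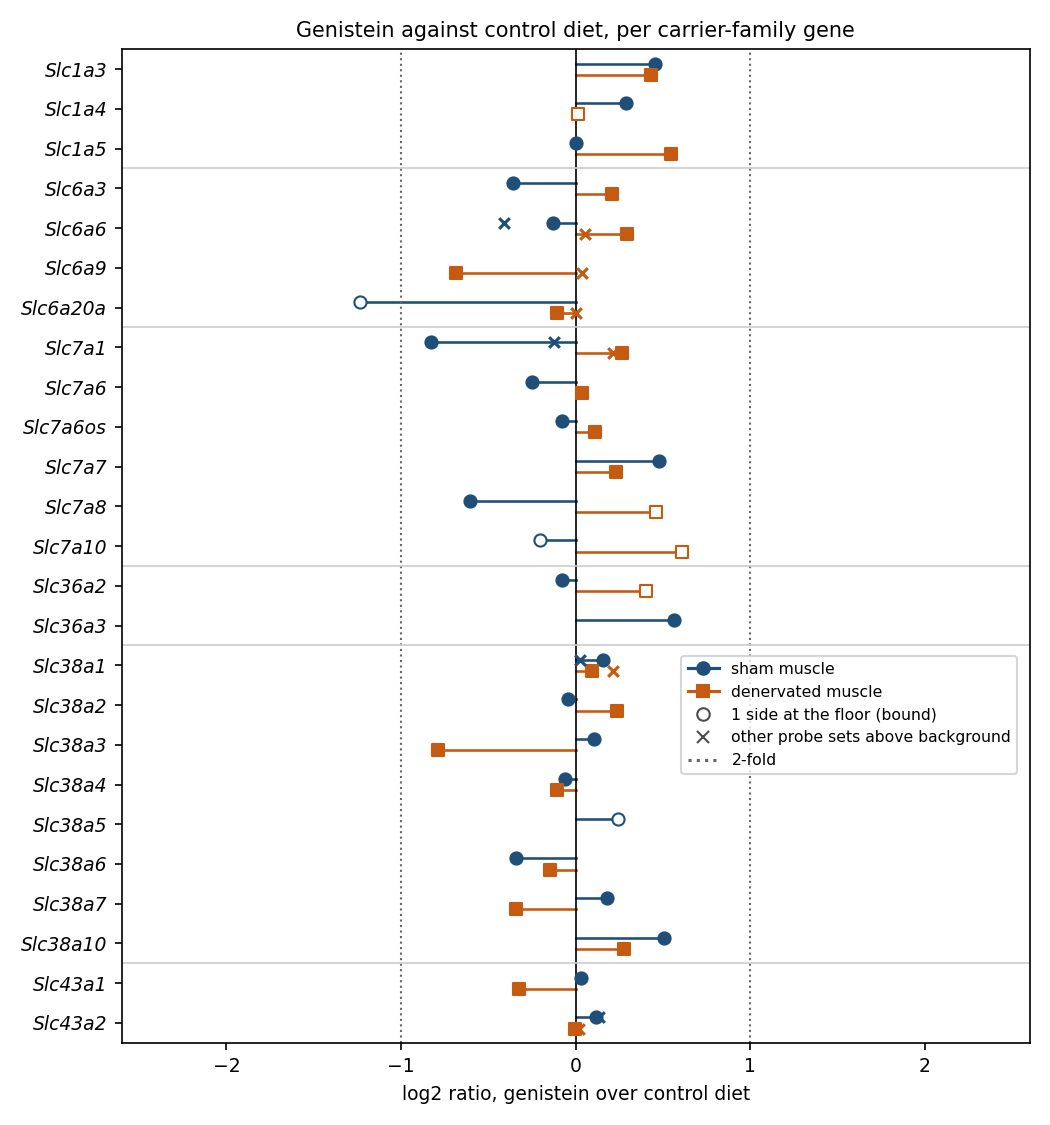
Log2 ratio of the genistein over the control diet for each gene, in sham muscle (circles) and denervated muscle (squares), with open symbols where 1 side lies at the floor, crosses for other probe sets measured on either array and dotted lines at 2-fold. Slc6a20a in sham muscle, at -1.23 as a bound, is the one point beyond a 2-fold line.

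The difference between the denervation ratios of the diets was set out per gene, as genistein minus control diet. It passed 1 log2 unit upward for 3 of 25 genes, Slc6a20a (1.13), Slc7a1 (1.1) and Slc7a8 (1.07), and downward for none, where 1.88% and 0.708% of 11151 genes did. For Slc7a1 the other probe set gave 0.33. The other probe set of Slc6a20a gave 0.003, with both of its sham signals below the floor. In the probe sets that stand for them, Slc6a20a and Slc7a8 each had 1 array below the floor. Only Slc7a1 had all 4 arrays above the floor, and the count was 1 under median scaling and 0 with the floor at the 60th percentile. For Slc38a3, above the floor on all 4 arrays, the difference was -0.89. For Slc6a9 both sham pools were below the floor, so the size and direction of its difference are not known.

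The genes set beside the carriers were taken from 5 lists of their partners, relatives and regulators. Between the diets 0 of them passed 2-fold, of 4, 14, 27, 13 and 14 measured in sham and 4, 15, 27, 13 and 12 in denervated muscle. Over the array 0.61% (sham) and 1.15% (denervated) did, so no result is read from this 0. The denervation counts below stand beside 5.04% higher and 7.63% lower over the array on the control diet. On genistein these shares were 4.96% and 6.57%. Slc3a2, the heavy chain that brings the Slc7a5 to Slc7a8 light chains to the membrane, was level at 1994.2 to 2197.3 units, with denervation ratios of 0.02 and 0.03. Slc3a1, the heavy chain of the cystine carrier, read 570.8, 336.7, 430.7 and 311.7 units in control sham, control denervated, genistein sham and genistein denervated muscle (-0.76 and -0.47). Of the genes kept out of the rule, Slc7a5 was above the floor in genistein denervated muscle only, at 99.8 units, Slc7a11 in control sham muscle only, at 80.0 units, and the creatine carrier Slc6a8 had ratios of -0.02 and -0.31.

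Of 20 genes on the array listed as amino acid carriers of other families, 15 were above background on some array. On the control diet 0 were 2-fold higher and 1 lower of 14 measured, and on genistein 1 higher and 3 lower of 15. These counts include Slc18a2, a monoamine carrier (-0.06 and 0.41), and Arl6ip5, which is not itself a carrier (-0.51 and -0.34). The mitochondrial aspartate and glutamate carriers Slc25a13 (-1.47 and -1.2) and Slc25a12 (-0.68 and -0.95) were below 0 on both diets, as were the mitochondrial glutamate carrier Slc25a22 (-0.49 and -1.06) and Slc16a10, the carrier of aromatic amino acids (-0.68 and -1.09). The lysosomal carrier of cationic amino acids Slc66a1 read 303.8, 357.0, 174.9 and 553.5 units in the 4 pools in the same order, and its denervation ratio passed 2-fold with genistein (1.66) but not with the control diet (0.23).

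Genes of amino acid sensing at the lysosome, which pass amino acid supply to the growth kinase complex mTORC1, were all above background (27 of 27 on the array). Of these, 1 was 2-fold higher on each diet, Sesn3, a sestrin that restrains this complex (156.4, 541.9, 165.2 and 476.6 units, ratios 1.79 and 1.53), and 0 were lower. The list medians were 0.01 and -0.01. Among enzymes of glutamate, glutamine, asparagine and GABA, 3 of 13 were higher and 1 lower on the control diet and 2 higher and 1 lower on genistein. Glul, glutamine synthetase, was 2-fold higher on both (1.27 and 1.05), Gpt2, mitochondrial alanine transaminase, was too (1.52 on both, as a bound on the control diet), and Got1, cytosolic aspartate transaminase, was lower (-1.90 and -1.73). Gls2, a glutaminase, was higher on the control diet only as a bound just past 2-fold, against -0.11 on genistein.

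**Figure D5:**
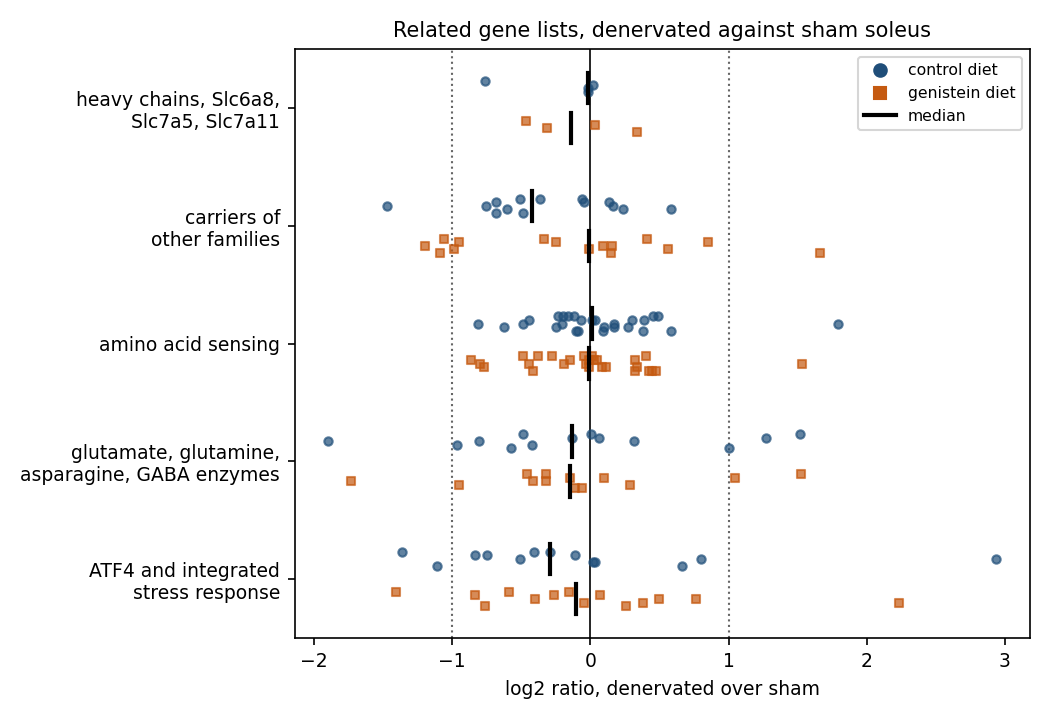
Log2 ratio of denervated over sham muscle for each measured gene of 5 related lists, on the control diet (circles) and the genistein diet (squares), with black bars at list medians and dotted lines at 2-fold. The medians lie between -0.43 and 0.01, and the point furthest right is Trib3 at 2.94 on the control diet.

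The last list holds the integrated stress response, which acts through the factor ATF4. Atf4 itself read 8740.6, 4910.7, 8807.9 and 4926.5 units in control sham, control denervated, genistein sham and genistein denervated muscle (-0.83 and -0.84). Of the measured genes of this list, 1 of 13 was higher and 2 were lower on the control diet, and 1 of 14 higher and 1 lower on genistein. Trib3, a pseudokinase and ATF4 target, was higher (2.94 and 2.23) and Ddit3, the factor CHOP, was lower (-1.37 and -1.41). Asns, asparagine synthetase, read 78.7 to 120.4 units.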

How the data were processed

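The 4 groups were each read once, from pooled RNA of 8 rats, so that no replicate, error, test or p-value was possible, and the precision is limited by the number of arrays. The authors deposited linear intensity signals per probe set, made with GCOS 1.1 per the submitters' processing notes. Each array's trimmed mean was 500.2 units, so the arrays had been scaled alike before deposit. Other settings and the genome build are not given in the sources used here. A probe set was named through the platform annotation: of 31042 non-control probe sets, 20826 had 1 gene, 436 several and 9780 none, and only the first were named.

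From the signals, the floor (40th percentile, 78.9 units) was applied and log2 ratios were computed without further scaling, with Python 3.11.15, NumPy 2.4.6, pandas 2.3.3, SciPy 1.17.1 and matplotlib 3.10.9, and checked on simulated data. Where a gene had several probe sets, the one highest in mean log2 signal stood for it, and a ratio with 1 side below the floor is a lower bound of the fold. Every family gene above background on any array was named with its 4 signals, those below it without ratios, and other genes only from the fixed lists; among these, the ones printed were chosen after their values were seen. The members and lists were chosen with earlier results of these data known. Alternatives were other scalings (median, quantile, spike-in), floors at the 20th and 60th percentile, no floor with 16 units added, a demand for the floor on every array, and the mean of probe sets. All 48 genes matched a RefSeq gene, with 0 symbols updated.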

Additional observations from a re-analysis of the deposited data

Results flagged for a closer look

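Some genes had denervation ratios of opposite sign on the control and the genistein diet. With 1 array per group these differences were not tested. On the log2 scale, control diet first, they were Slc38a7 (0.39 and -0.13), Slc6a20a (-0.80 and 0.33, a bound on genistein), Slc6a6 (-0.25 and 0.17) and Slc7a10 (-0.20 and 0.61, both bounds). For Slc6a6, the taurine carrier, the other probe set also had opposite signs (-0.33 and 0.13). For Slc6a20a the other probe set had the same sign on both diets (0.12 and 0.12, both bounds). Under spike-in scaling Slc6a6 was at 0.14 on the control diet and Slc38a7 at 0.35 on genistein, so that neither kept opposite signs.

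Others had genistein ratios of opposite sign in sham and denervated muscle, again not tested. Sham first, those at least as far apart as 0.5 log2 units were Slc38a3 (0.11 and -0.79), Slc38a7 (0.18 and -0.34), Slc6a3 (-0.36 and 0.21) and Slc7a1 (-0.83 and 0.27). So were Slc7a10 (-0.20 and 0.61, both bounds) and Slc7a8 (-0.61, and 0.46 as a bound). The other probe set of Slc7a1 gave -0.12 and 0.21. Smaller gaps were seen for Slc36a2 (-0.08, and 0.41 as a bound), Slc38a2 (-0.04 and 0.23), Slc43a1 (0.03 and -0.32), Slc6a6 (-0.13 and 0.30), Slc7a6 (-0.25 and 0.03) and Slc7a6os (-0.08 and 0.11). Some of these signs turned with the scaling. Under median scaling Slc7a6 was at -0.10 and Slc7a6os at -0.02 in denervated muscle, and under quantile normalization Slc38a2 was at 0.01 in sham muscle.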

How the results depend on the processing

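No paired analysis was possible because each group is 1 pooled array. In the denervation and diet comparisons, no called gene changed direction under an alternative that measured it. For the difference between the denervation ratios only counts and medians were followed, not single genes. The counts moved with the floor and the scaling, and the cause was not tested. Genes above background numbered 44 by a 20th percentile floor, in place of 25, and 14 by a 60th. On the control diet the count higher after denervation (1) was 4 under spike-in scaling and 0 with the 60th percentile floor or with every array above the floor. The count lower (3) was 1 under spike-in scaling and 7 with the 20th percentile floor, and the median (-0.14) was 0.29 with the 60th percentile floor. On genistein the count higher (2) was 1 under quantile normalization, the 60th percentile floor, every array above the floor or the mean of probe sets, 6 under spike-in scaling and 4 with the 20th percentile floor. The count lower (1) was 2 under quantile normalization or with no floor and 4 with the 20th percentile floor, and the median (-0.07) was 0.38 under spike-in scaling. For genistein in sham muscle, 2 were higher and 3 lower with the 20th percentile floor, and 0 lower with the 60th percentile floor, every array above it or the mean of probe sets. In denervated muscle 2 were higher with the 20th percentile floor and 1 with no floor. For the difference, the count higher (3) was 1 under median scaling, every array above the floor or the mean of probe sets, 6 with the 20th percentile floor and 0 with the 60th, and 1 was lower under median scaling or the 20th percentile floor. The share higher among all called genes of the array was 39.8% and 43.0% for denervation (control diet, genistein) and 78.2% and 86.8% under spike-in scaling. For genistein in denervated muscle it was 89.2%, and 69.3% under median scaling and 79.1% under quantile normalization. For the difference it was 72.7%, 52.9% and 61.5%. The fall of Slc7a1 on the control diet (-2.03 to -1.02) and of Slc38a3 on genistein (-2.28 to -1.56) passed 2-fold under all 8 alternatives. Leaving out Slc7a6os, an alternative chosen after seeing the data, changed no count of genes past 2-fold.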
